A study of Mus musculus with 5 samples.

Results

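Spindle assembly and cytokinesis genes encode the machinery that builds the mitotic spindle and then divides the cell. The 10 genes described here were Prc1, Anln, Racgap1, Ect2, Cep55 and Cit, which act in cytokinesis, and Tpx2, Nusap1, Hmmr and Ckap2, which act on spindle microtubules. They were taken by name, as every probe set whose platform annotation gives 1 of these symbols and no other. That gave 26 of the 45037 probe sets tested and 10 of the 18193 genes with such a probe set. All 26 were tested, with no filter on low values.

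Affymetrix expression arrays were run on KLS cells, a sort gate for c-Kit and Sca-1 without lineage markers that contains the blood stem cells and the earliest progenitors. In the deficient group the mice had the genotype Rb -/- p130 -/- p107-/-, which by the label is the loss of all members of the pocket protein family (3 arrays). The controls, titled wild type, were Rb +/+ p130 +/+ p107+/- and so carried 1 intact copy of the p107 gene (2 arrays). Recombination with Mx1-Cre, which an interferon-responsive promoter drives in blood-forming cells and in other tissues, was set off in mice aged 6 weeks, and the sort followed after 2 months. All arrays share this schedule. The labels do not say whether the controls carried Cre, and they do not give the agent that set off recombination or the sex of the mice. Nor do they say whether an array holds 1 animal or a pool. The p-values thus reflect how far these arrays differ, which may be technical.

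In a dividing cell, TPX2 carries the signal of the small GTPase Ran to microtubules and activates the kinase Aurora A, NUSAP1 bundles spindle microtubules near chromosomes, and HMMR and CKAP2 act at spindle poles and fibres. After the chromosomes part, PRC1 crosslinks the overlapping microtubules of the central spindle. RACGAP1, a subunit of centralspindlin, recruits the exchange factor ECT2, which activates RhoA beneath the membrane. Anillin (Anln) and citron kinase (Cit) organise the contractile ring and the midbody, and CEP55 recruits the machinery that cuts the last bridge. Many such genes are known in cultured cells as late cell cycle genes that pocket proteins p107 and p130 hold off in resting cells. They do so as part of the DREAM complex, which reaches DNA through the CHR element (cell cycle genes homology region), often near a CCAAT box that the factor NF-Y binds.

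The promoters are shown for the 4 genes with the smallest p-values whose window held a searched motif, because these letters are where such complexes are known to sit in genes of this kind. RefSeq windows on GRCm38.p6, each 300 bases long with 250 before and 50 after an annotated start, were matched by symbol or gene ID for 9 of the 10 genes. Tpx2 was not matched. Capitals mark matches on either strand to the CHR letters TTTGAA and to the CCAAT box. They also mark the E2F letters, which are TTGGCGC in one form, with TTCCCGC searched as another form, and with TTCGCGC as the last form searched. Sequences run from 5′ to 3′ on the strand of the gene. Prc1 lies at chr7:80294201-80294500 on the plus strand, Ect2 at chr3:27153829-27154128 on the minus strand, Anln at chr9:22389157-22389456 on the minus strand and Cep55 at chr19:38054734-38055033 on the plus strand. Where a gene had 2 windows (Prc1, Ect2 and Cep55), the first listed is shown.
Prc1: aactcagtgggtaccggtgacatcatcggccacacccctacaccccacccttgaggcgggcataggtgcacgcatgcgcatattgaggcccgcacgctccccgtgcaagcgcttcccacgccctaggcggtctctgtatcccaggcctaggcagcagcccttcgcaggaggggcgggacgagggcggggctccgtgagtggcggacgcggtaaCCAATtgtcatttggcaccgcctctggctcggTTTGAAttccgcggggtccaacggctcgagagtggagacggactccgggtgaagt
Ect2: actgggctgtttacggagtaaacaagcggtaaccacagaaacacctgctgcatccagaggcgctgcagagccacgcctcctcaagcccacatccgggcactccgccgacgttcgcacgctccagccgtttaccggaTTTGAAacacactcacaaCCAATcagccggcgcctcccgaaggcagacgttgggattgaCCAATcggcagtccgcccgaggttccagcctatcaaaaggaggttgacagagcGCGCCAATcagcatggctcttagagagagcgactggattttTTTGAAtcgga
Anln: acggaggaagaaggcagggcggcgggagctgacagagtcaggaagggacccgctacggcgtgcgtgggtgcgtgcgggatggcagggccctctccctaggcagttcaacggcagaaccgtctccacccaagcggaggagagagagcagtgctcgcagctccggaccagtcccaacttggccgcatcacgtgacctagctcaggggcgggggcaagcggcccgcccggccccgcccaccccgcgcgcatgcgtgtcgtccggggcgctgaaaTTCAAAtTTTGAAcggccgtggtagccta
Cep55: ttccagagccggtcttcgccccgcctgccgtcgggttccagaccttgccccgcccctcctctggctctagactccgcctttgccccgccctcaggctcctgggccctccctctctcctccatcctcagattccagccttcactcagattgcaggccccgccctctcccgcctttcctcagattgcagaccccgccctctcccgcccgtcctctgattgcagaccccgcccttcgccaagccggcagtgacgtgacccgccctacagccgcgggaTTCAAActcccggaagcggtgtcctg

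In the Prc1 window a CCAAT box at bases 214 to 218 was followed by TTTGAA at bases 246 to 251, across the annotated start. Ect2 held TTTGAA at bases 137 to 142 and again at 290 to 295, with 3 CCAAT boxes. The third of these overlapped an E2F match, so that the letters run together. Anln had 2 matches to the CHR letters, the first on the opposite strand, 1 base apart at 272 to 277 and 279 to 284. Cep55 had 1, at 275 to 280 and also on the opposite strand. Neither the Anln nor the Cep55 window held the CCAAT or E2F letters.

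Across the windows, 7 of the 9 matched genes held TTTGAA: the 4 shown and Racgap1, Hmmr and Ckap2. The letters occur in 17.9% of all 32851 windows and in at least 1 window of 20.2% of all 27025 genes. Within 50 bases of the start on either side, a stretch chosen after the positions were seen, 6 of 9 genes held them, against 5.72% of all genes. CCAAT was found in 5 of 9 genes (41.1% of all genes) and an E2F match in 2 of 9, Ect2 and Hmmr (9.20% of all genes). Cit and Nusap1 matched none of these letters. In the lists compared below, TTTGAA was in 14 of 30 other spindle assembly genes with a window, 9 of 22 other cytokinesis genes, 8 of 18 kinetochore and checkpoint genes and 3 of 19 DNA replication genes. The E2F letters were in 14 of those 19 replication genes. A match in these windows describes letters and does not show binding.

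**Figure D1:**
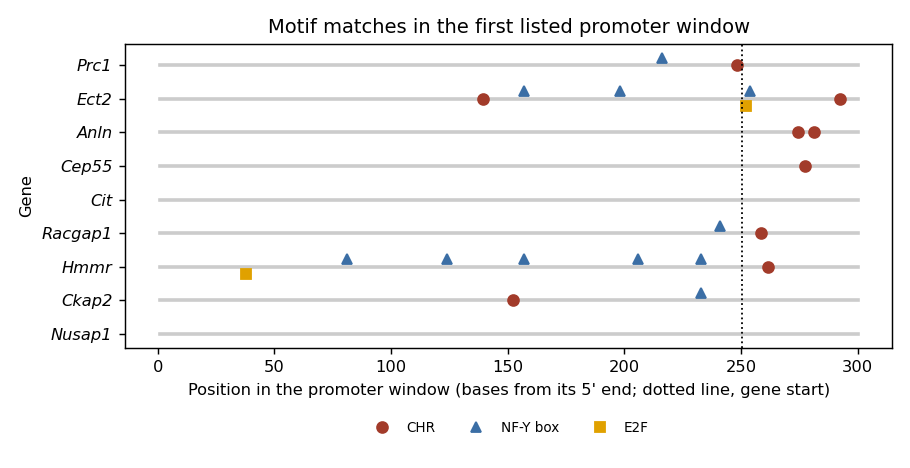
Positions of motif matches (CHR, the NF-Y box CCAAT, and E2F) in the first listed RefSeq promoter window of 9 of the 10 genes, in bases from the 5′ end of a 300-base window; the dotted line is the annotated start. Prc1, Anln, Cep55, Racgap1, Ect2 and Hmmr each have at least 1 CHR match within 50 bases of the start, and Ect2 has another further upstream, while Cit and Nusap1 have no match to any of the motifs.

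The labels were checked first. Rbl1, which encodes p107, read 8.33 and 7.16 on the control arrays and 5.15, 4.25 and 4.73 on the deficient arrays. This fall had an adjusted p of 0.0266 with 1 probe set per gene and 0.0513 over all probe sets, and 0.0318 to 0.0865 with 1 probe set per gene when any 1 array was left out. The other targeted genes, Rb1 and Rbl2, overlapped between the groups on their brightest probe sets. Where the probes lie relative to the deleted parts is not given in the sources used here, so a probe outside them does not check the deletion. Median intensities ran from 26.1 to 26.7 on the 5 arrays and correlations between arrays from 0.979 to 0.993. Kit, which the sort selects for, read 10.83 to 11.25 on all arrays, and Ly6a (Sca-1) had no probe set with that symbol alone.

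Both control arrays had higher sums of neutrophil, B and plasma cell, and macrophage and dendritic markers than any deficient array. This did not hold for T and NK cell or erythroid markers. A lineage-negative sort should lack mature cells of these lineages. Whether each listed marker is limited to mature cells was not examined. Of 10 measured neutrophil markers, 9 fell in the deficient arrays (1.41% of all genes were called lower), and their summed linear intensity was 49629 to 60664 in controls against 1331 to 2348. Of 9 B and plasma cell markers, 3 fell (sums of 15942 to 28954 against 1181 to 1283). For 10 macrophage and dendritic markers, of which 1 fell, the sums were 5057 to 7764 against 2244 to 2716. For 10 T and NK cell markers, of which 2 fell, they were 1712 to 2456 against 2429 to 3055. Of these 10, 8 had lower means, and the brightest was Nkg7, at 10.41 and 10.91 in controls and 11.30, 11.11 and 11.46 in deficient cells. For 7 erythroid markers, of which 0 passed (limma, 0 lower and 1 higher at an unadjusted p under 0.05), the sums were 3829 to 5379 against 1855 to 7450. At an unadjusted p under 0.05 (limma), 6 of 9 B and plasma cell markers were lower and 0 higher. Of 10 macrophage and dendritic markers 7 were lower and 0 higher, and of 10 T and NK cell markers 3 were lower and 1 higher. Over all genes 9.86% were lower and 8.79% higher at that level. Intensities are never 0. On all deficient arrays 1 neutrophil, 4 B and plasma, 1 macrophage and dendritic, 6 T and NK and 3 erythroid markers read below the array median. On all control arrays these counts were 1, 1, 1, 2 and 3 in the same order. The part of these cells in the differences below was not tested.

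All 10 genes had higher means in deficient KLS cells, and on the brightest probe set of each the 3 deficient arrays read above both controls. Differences are deficient minus control on the log2 scale, and an adjusted p under 0.05 was the threshold. With 1 probe set per gene, 2 rose past it: Prc1 and Ect2, each about 2.05-fold. Over all genes 0.83% were called higher, 8.79% were higher at an unadjusted p under 0.05 (9 of the 10 genes here, all but Nusap1), and 16.5% had groups that did not overlap with deficient higher (all 10). The median difference was 0.85 over the 10 genes and -0.01 over all genes. Over all 45037 probe sets, 0 of the 26 probe sets passed in either direction (limma; 0.164% were called higher and 0.326% lower), 14 were higher at an unadjusted p under 0.05 (7.28% of all), and 18 did not overlap with deficient higher (15.4% of all). In sorted bulk RNA, a larger share of dividing cells and more RNA per dividing cell cannot be told apart.

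**Figure D2:**
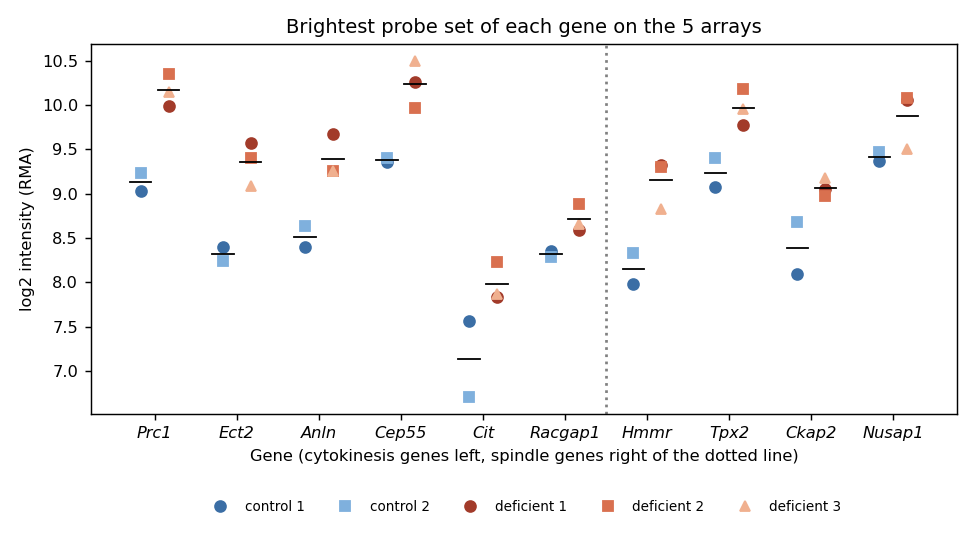
RMA log2 intensity of the brightest probe set of each gene, 1 point per array with a bar at the mean of the 2 control and of the 3 deficient arrays. Every deficient point lies above both control points of its gene, by 0.04 for Nusap1 and by 0.75 for Prc1 at the nearest approach.

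Prc1 had the smallest p-value among these genes. On 1423775_s_at, the brighter of its probe sets, it read 9.03 and 9.24 in controls and 9.99, 10.35 and 10.15 in deficient cells. The groups were well separated, with each spread (SD 0.15 and 0.18) far below the difference of 1.03 (SE 0.15, adjusted p = 0.0338). A second probe set, 1423774_a_at, read 7.92 and 8.31 against 9.27, 9.36 and 9.19, a difference of 1.15. Over all probe sets these had adjusted p-values of 0.0582 and 0.0502, just short of the threshold.

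Ect2, the exchange factor, has 1 probe set (1419513_a_at), at 8.40 and 8.24 in controls and 9.57, 9.40 and 9.09 in deficient cells. Its rise was 1.03 (SE 0.17, adjusted p = 0.0428). Racgap1, its partner at the central spindle, read 8.35 and 8.28 against 8.59, 8.88 and 8.66 on its brightest probe set, a difference of 0.40 (95% interval 0.08 to 0.71, adjusted p = 0.178). Another Racgap1 probe set (1451358_a_at), also well above the array median, read 7.93 and 7.78 against 7.99, 7.95 and 8.16 (difference 0.18). Here the groups were separated by only 0.01. The third (1441889_x_at) read between 3.19 and 3.37 on all arrays, under every array median of 4.71 to 4.74.

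Anln, the ring scaffold, read 8.40 and 8.64 in controls and 9.67, 9.26 and 9.26 in deficient cells. The difference was 0.88 (95% interval 0.46 to 1.30, adjusted p = 0.0660), with deficient 1 the highest array. On its dim probe set 1439648_at the highest was deficient 3 at 5.79, where the other 4 arrays read 3.89 to 4.80. Cep55, the abscission gene, read 9.36 and 9.40 against 10.26, 9.97 and 10.50, a difference of 0.86 (95% interval 0.44 to 1.28, adjusted p = 0.06705). Its controls lay close together (SD 0.03) and its deficient arrays less so (SD 0.26). A dim second probe set (1453683_a_at) stayed between 3.53 and 3.96, and the groups overlapped.

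Cit had the widest control spread among these genes. The brightest Cit probe set (1455609_at) gave 7.57 and 6.71 in controls and 7.83, 8.23 and 7.87 in the deficient arrays. They differed by 0.84 (SE 0.27, adjusted p = 0.174). That difference was 0.41 without control 2 and 1.27 without control 1. The other 3 probe sets of the gene did not separate the groups. Of these, 1458276_x_at differed by -0.02 at levels of 6.86 to 7.11, and the others by 0.36 and 0.24 at levels of 4.60 to 5.77. Which Cit transcripts each probe set reads was not analysed here.

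Among the spindle genes, Hmmr had the largest difference. Its brightest probe set (1425815_a_at) read 7.98 and 8.33 in controls and 9.33, 9.30 and 8.82 in deficient cells, with deficient 3 the lowest of its group (difference 1.00, 95% interval 0.51 to 1.48, adjusted p = 0.0682). Probe sets 1450156_a_at and 1427541_x_at, at lower levels of 5.06 to 6.74, differed by 0.89 and 0.98 and also had deficient 3 as the lowest deficient array. The remaining Hmmr probe sets differed by 0.44 (1429871_at) and 0.07 (1450157_a_at). On the last of these the groups were apart by less than 0.01, so it counts as not overlapping without a measurable gap.

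Tpx2 read 9.08 and 9.40 in controls and 9.77, 10.18 and 9.95 in deficient cells on its brightest probe set (1428104_at; difference 0.73, 95% interval 0.32 to 1.14, adjusted p = 0.0895). The less bright 1428105_at had the wider gap, 7.72 and 7.28 against 8.37, 8.52 and 8.60. It differed by 1.00 (adjusted p = 0.0743 over all probe sets). Between these probe sets, the brighter thus gave the smaller difference. The other 2 probe sets lay between 4.76 and 5.31 and differed by 0.17 each.

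Ckap2 has 1 probe set (1434748_at), which read 8.10 and 8.68 in controls and 9.05, 8.97 and 9.18 in deficient cells. The difference was 0.68 (95% interval 0.22 to 1.14, adjusted p = 0.130), and 0.39 without control 1. The deficient arrays were close together (SD 0.11) and the controls were not (SD 0.41). Nusap1 was the least separated gene: 9.37 and 9.47 against 10.06, 10.08 and 9.50 on 1416309_at. Deficient 3 lay 0.04 above the higher control there, while deficient 1 and 2 were well above both. The difference was 0.46 (95% interval -0.02 to 0.95, adjusted p = 0.293), and the dim probe set 1416310_at differed by 0.08 with overlapping groups.

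The cytokinesis genes had a median difference of 0.87 (6 genes, 0.40 to 1.03, 2 called) and the spindle genes one of 0.71 (4 genes, 0.46 to 1.00, 0 called by limma, 3 at an unadjusted p under 0.05). The ranges overlap, and the difference between the 2 subsets was not tested. Of all genes, 0.83% were called higher and 8.79% were higher at an unadjusted p under 0.05 (limma). No array set the order of the 10 genes alone. Control 1 was the lower control for 7 genes and control 2 for Ect2, Racgap1 and Cit. Among the deficient arrays the lowest was deficient 1 for 4 genes, deficient 2 for 2 and deficient 3 for 4.

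Probe sets of the 10 genes were also described by their level. Within a gene the brightest did not always differ most, since 1423774_a_at of Prc1, 1439648_at of Anln and 1428105_at of Tpx2 had larger differences. All 13 member probe sets with a mean above 7 did not overlap and were higher in deficient cells, with a median difference of 0.86. The limit of 7 was chosen after the values were seen and lies just above Cit 1458276_x_at, and 24.8% of all 12900 probe sets above it did the same. Of the 13 at or below it, 5 did so (11.6% of all at that level) and the median was 0.20. Only 4 probe sets, of Racgap1, Cep55, Nusap1 and Hmmr, were under the median of every array.

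**Figure D3:**
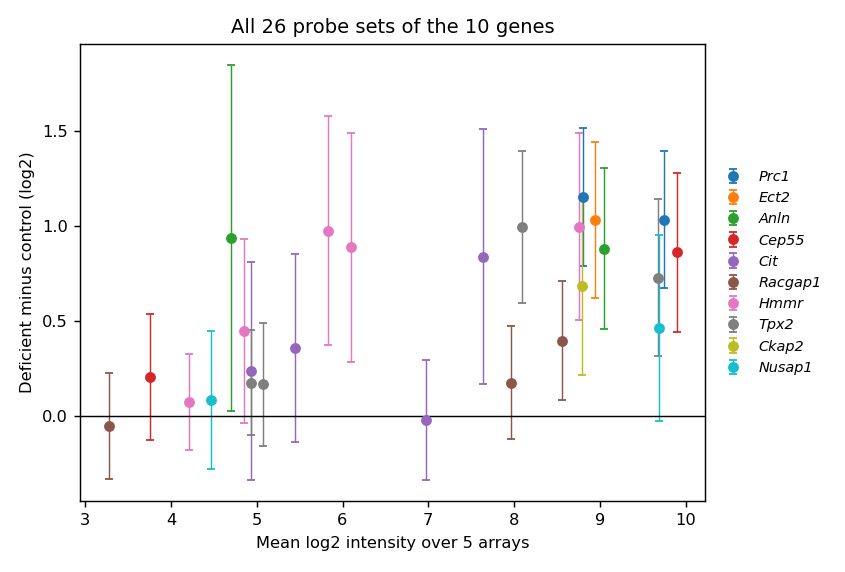
Difference between deficient and control arrays (log2, y axis) against mean log2 intensity over the 5 arrays (x axis) for all 26 probe sets, coloured by gene, with 95% intervals from limma. Probe sets above 7 lie between 0.18 and 1.15, and those at or below 7 between -0.05 and 0.98.

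Both calls depended on the full set of arrays. Without any 1 array, 0 of the 10 genes passed (limma), with adjusted p-values of 0.0699 to 0.129 for Prc1 and 0.0701 to 0.133 for Ect2. Fewer genes of any kind were then called higher, 14 to 46 against 151. The sizes moved less: Prc1 ran from 0.93 to 1.14, Ect2 from 0.93 to 1.16, Anln from 0.74 to 1.00 and Hmmr from 0.82 to 1.17. The median of the 10 genes ran from 0.79 without control 1 to 0.92 without control 2. Besides Cit and Ckap2, no gene moved by more than 1.5 times from its value with all arrays. Every value stayed above 0. This had to be so, because all deficient arrays read above both controls on these probe sets.

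**Figure D4:**
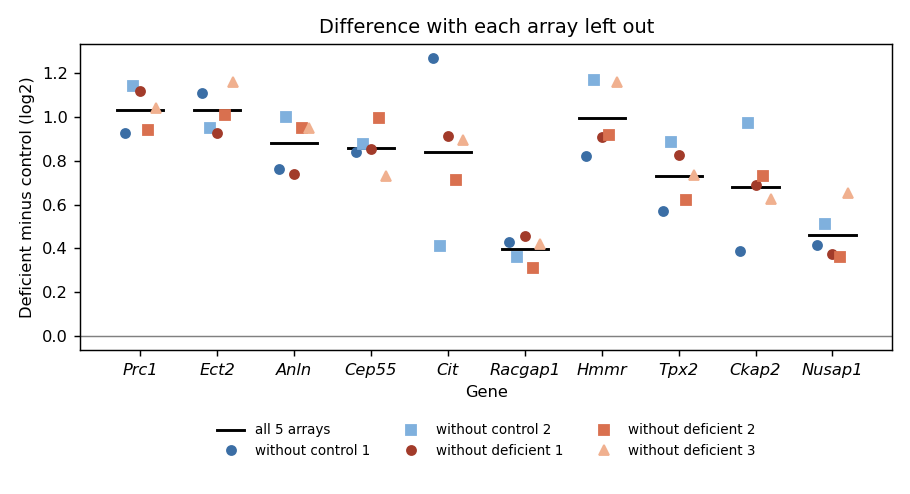
Difference between deficient and control arrays (log2) for each gene with all 5 arrays (bar) and with each array left out (points). Cit spreads from 0.41 to 1.27 with either control left out, while Ect2 and Prc1 stay between 0.93 and 1.16.

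Other genes of the same machinery were then counted from lists of spindle assembly and cytokinesis factors outside the 10. Of 39 other spindle assembly genes, 4 rose (0.83% of all genes were called higher), 0 fell and 35 did not pass, and the list median was 0.38. At an unadjusted p under 0.05 (limma), 23 were higher, as were 8.79% of all genes, and 0 lower. Aspm, a spindle pole protein gene, read 8.50 and 8.19 in controls and 9.61, 9.51 and 9.46 in deficient cells (difference 1.18, adjusted p = 0.0196). Bora, a cofactor of Aurora A, rose by 1.20 on the log2 scale, Spag5 (astrin) by 1.12 and the bipolar spindle motor Kif11 by 0.78. The means of 36 of the 39 were higher (48.1% of all genes), and 27 did not overlap with deficient higher (16.5% of all genes).

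Of 27 other measured cytokinesis genes, 3 rose (0.83% of all genes), 0 fell (1.41% of all genes) and 24 did not pass, with a median of 0.29. Arhgap11a, a RhoA-acting GTPase activator gene, read 9.38 and 9.15 against 10.52, 10.66 and 10.39 (difference 1.26, adjusted p = 0.01735). The mitotic kinase Plk1 rose by 0.59 and Incenp, the scaffold of the Aurora B complex, by 0.86. Septin11, a filament gene, differed by 0.79 (adjusted p = 0.05485). The means of 20 of the 27 were higher and 7 lower, and 15 did not overlap with deficient higher (16.5% of all genes). Another 3 did not overlap with deficient lower, as did 3381 of all 18193 genes.

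With any 1 of the deficient arrays left out, 0 of the other spindle assembly genes and 0 of the other cytokinesis genes passed. In those fits only 0.077% to 0.132% of all genes were called higher, against 0.83% with all arrays. The counts thus fell over all genes and not in these lists alone. With all arrays, limma gave an unadjusted p under 0.05 for 13 of the 27 other cytokinesis genes with higher means (8.79% of all genes). It did so for 2 with lower means (9.86% of all genes).

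Kinetochore and checkpoint genes, which attach chromosomes to the spindle that Tpx2 and its partners build, had a median of 0.69. Of 20 genes 4 rose, Bub1 (1.31), Cenpf (1.34), Cenpe (1.47) and Ttk (0.90), where 0.83% of all genes were called higher. All 20 means were higher (48.1% of all genes), and 14 of the 20 did not overlap with deficient higher (16.5% of all genes). DNA replication genes act earlier in the cycle: 0 of 24 passed (limma; 8 higher at an unadjusted p under 0.05), and the median was 0.35. There 22 of 24 means were higher and 17 of 24 did not overlap with deficient higher. The smallest p-values there belonged to Tipin (0.71), Pold1 (0.67), Rrm2 (0.52) and Fen1 (0.45). The replication median was 0.145 without control 1 and 0.51 without control 2, a wider range than that of the 10 genes. No test of the lists against each other was made, so the order of these medians is a description.

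**Figure D5:**
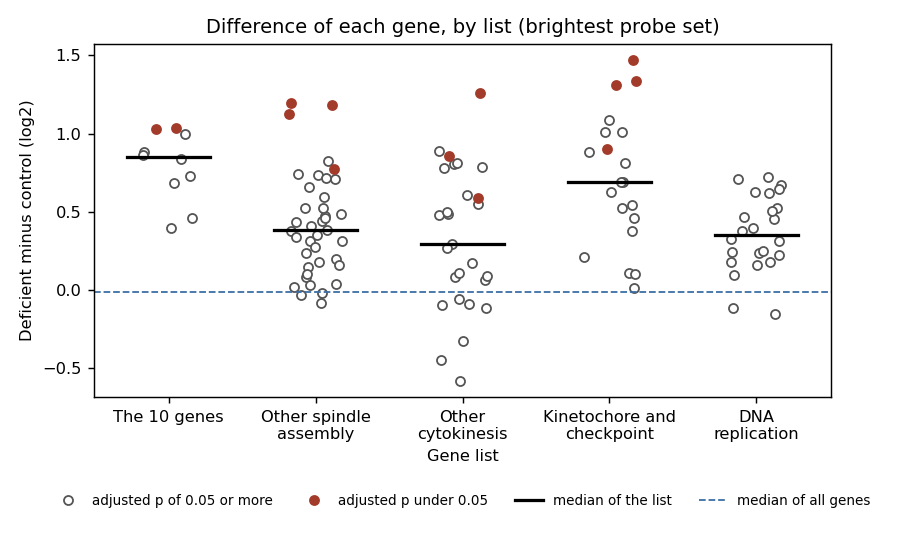
Difference between deficient and control arrays (log2, brightest probe set) for each gene of 5 lists, with filled points for genes at adjusted p under 0.05 (limma, over all genes) and bars at list medians. The 10 genes all lie between 0.40 and 1.03, and the dashed line is the median of all genes (-0.01).

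The genes with the most similar pattern were ranked by the root mean square distance of their centred values over the 5 arrays to the median profile of the 10 genes, among 11444 genes outside all lists with a mean level at or above that of the median probe set. The 5 nearest were Utp20 (distance 0.04), Ttll4 (0.05), Cgas (0.05), Hyou1 (0.06) and Frrs1 (0.06). Single members lay 0.12 to 0.33 from their own median, and the median gene 0.44. Utp20, a ribosome assembly gene, read 9.80 and 9.91 in controls and 10.64, 10.68 and 10.49 in deficient cells. Ttll4 encodes an enzyme that adds glutamate to proteins, Cgas a sensor of cytosolic DNA, and Hyou1 a chaperone of the endoplasmic reticulum. None of the 5 is a spindle or cytokinesis gene of the lists, since list genes were left out.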

How the data were processed

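RNA of sorted KLS cells was labelled with biotin and hybridised to Affymetrix arrays, per the labels' protocols. The authors deposited RMA intensity values on a linear scale, per the submitters' processing notes; the software version is not given in the sources used here. RMA sets arrays to a common distribution, so a shift of all transcripts would not be seen. Of 6 arrays hybridised the authors left out 1. Here log2 was taken and limma 3.58.1 in R 4.3.3 (lmFit, eBayes, two-sided, no covariate) was fitted on all 5 arrays over 45037 probe sets, leaving out 64 AFFX controls, and again on the brightest probe set of each of 18193 genes, with Benjamini-Hochberg adjustment. The fit was tested on simulated data. Arrays were grouped by title. All 5 columns were matched. The platform annotation gave 1 symbol for 34945 probe sets, several for 932 and none for 9160.

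Of the list genes, the text names the 4 with the smallest p of each mitosis and replication list, the targeted genes and Kit; of the marker lists it names Nkg7. Members and lists were chosen with earlier results of these data known. The number of arrays limits the precision. Alternatives were other normalizations, filters, priors, array weights, a threshold of 0.1, a replicate block, the mean of the probe sets of a gene, and leaving out each array.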

Additional observations from a re-analysis of the deposited data

How the results depend on the processing

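All 150 values of the 10 genes under 15 alternatives kept their direction; 132 kept their side of the threshold, 13 no longer passed and 5 newly passed. In most of these fits the direction could not change. Another threshold, prior or dim filter leaves each difference as it was. Weights, a block or 1 array fewer cannot turn the sign where the groups do not overlap. The values that no longer passed all belonged to Prc1 or Ect2, the only genes called in the main fit. The count of genes called higher was 2 of 10 with all arrays. It was 3 with an intensity trend (Cep55 passed, adjusted p = 0.0448 by limma), 1 with array weights (Ect2 did not pass), 6 at adjusted p under 0.1, and 0 in each fit with 1 array left out. Of all genes, 0.83% were called higher in the main fit and 1.12% with an intensity trend. The share was 0.715% with array weights and 2.61% at adjusted p under 0.1. With the replicate block 0 of the 10 genes passed, as did 0 other spindle assembly and 0 other cytokinesis genes (0.0055% of all genes were called higher). Only 1 residual degree of freedom is left there. Deviations of same-numbered arrays correlated at -0.05 and -0.02. With 2 control arrays, these values cannot settle whether same-numbered arrays were handled together. Of the 26 probe sets, where 0 passed, 1 passed with median centring (91 of all 45037 were called higher) and 1 with array weights (74 of all). Without dim probe sets 21 of the 26 were tested and 1 passed, where 96 of 22519 were called higher. With an intensity trend 2 passed (141 of all), and 4 did at adjusted p under 0.1 (451 of all). The other spindle assembly count (4) was 7 at adjusted p under 0.1, 2 with the mean of the probe sets of a gene, and 0 to 1 with 1 array left out. The other cytokinesis count (3) was 1 after quantile normalization again, 1 with array weights, 7 at adjusted p under 0.1, and 0 with 1 array left out. With the mean of the probe sets of a gene, which adds dim probe sets, the median of the 10 genes was 0.604 and that of the kinetochore list 0.489. With 1 array left out, the kinetochore median ran from 0.571 to 0.887 and the replication median from 0.145 to 0.51. Over all genes, 151 were called higher and 257 lower; at adjusted p under 0.1 these counts were 475 and 590, with the replicate block 1 and 20, and with 1 array left out 14 to 46 and 57 to 163. Over all probe sets (74 and 147) they were 141 and 260 with an intensity trend, 451 and 497 at adjusted p under 0.1, 0 and 15 with the replicate block, and 2 to 5 and 21 to 73 with 1 array left out. The causes of these changes were not tested. Where a single control remains, it is assumed to vary like the deficient arrays.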
